A study of Mus musculus with 8 samples.

Results

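The genes described here are the semaphorins, plexins, neuropilins, ephrins and Eph receptors, 5 gene families known for their part in steering axons and cells. Rows were taken by symbol, as every row of the count table for a semaphorin of class 3 to 7, a plexin of family A to D, a neuropilin, an ephrin or an Eph receptor. The families themselves were chosen with earlier results of these data known. This gave 53 genes of 23284 in the table, 28 of them ligands (20 semaphorins and 8 ephrins) and 25 receptors (2 neuropilins, 9 plexins and 14 Eph receptors). RNA was sequenced from cells of the pancreas of Dclk1-CreERT;tdtomato mice of strain CBA x C57BL/6J. The 4 libraries of Dclk1+ cells are numbered 1 to 4, and the 4 libraries of Dclk1- cells, from mice of the same genotype, are numbered 5 to 8. The genotype pairs an inducible Cre recombinase named for Dclk1, a doublecortin-like kinase, with a red fluorescent reporter that Cre switches on. The labels state no age, sex, induction, gate or number of mice, and nothing says that libraries of a group came from separate animals, so p-values measure only the spread between these libraries.

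Semaphorins of class 3 are secreted, and most of them bind a neuropilin that presents them to a plexin. Those of classes 4 to 7 stay on the cell surface and mostly bind plexins directly, and the plexin then acts on small GTPases that shape the cytoskeleton and adhesion. Ephrins are also held at the membrane, by a lipid anchor in the A family and a membrane-spanning segment in the B family, and bind Eph receptor tyrosine kinases on neighbouring cells, with signals passing into both cells. Outside the nervous system these families are known from vessel growth, epithelial boundaries and leukocyte contacts.

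Total counts per library were 7990777 to 10282911 in Dclk1+ and 6353841 to 7242084 in Dclk1- libraries. Dclk1 itself was at 131, 221, 53.3 and 17.9 CPM (counts scaled to a common library size) in Dclk1+ libraries 1 to 4, against 7.35, 15, 14.9 and 2.67 CPM in Dclk1- libraries 5 to 8. The groups did not overlap. Its log2 fold change, Dclk1+ over Dclk1-, was 3.40 ± 0.82 (SE), at an adjusted p of 0.0503 in the quasi-likelihood test of edgeR with Benjamini-Hochberg adjustment, just above the threshold of 0.05. Dclk1+ library 4 held the least Dclk1 of its group and stood apart in leukocyte RNA, as given below with the class 4 semaphorins. Dclk1- libraries 7 and 8 stood apart from 5 and 6 in the share of counts from the ribosomal RNA gene Rn45s (34.2% and 26.1%, against 9.34% and 9.92%). Their summed erythroid markers were also higher (2192 and 2433 CPM, against 36.0 and 51.3 CPM). Acinar markers summed to 15266 to 63334 CPM in Dclk1+ libraries, against 3582 to 73341 CPM in Dclk1- libraries. The 10 glial markers summed to 27.4 to 105 CPM in Dclk1+ libraries, against 91.3 to 151 CPM in Dclk1- libraries, with Sox10 and Gfap at 0 in all Dclk1- libraries and Foxd3 at 0 in all 8.

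Together the guidance genes took a larger share of counts in Dclk1+ than in Dclk1- libraries, and of the 41 tested genes all but 4 semaphorins of class 4 and 1 plexin had a positive log2 fold change. The 53 genes took 0.324%, 0.267%, 0.319% and 0.225% of all counts in Dclk1+ libraries, against 0.122%, 0.149%, 0.0952% and 0.111% in Dclk1- libraries, so no Dclk1- library reached the lowest Dclk1+ library. Of the 53 genes, 41 passed the filter on low counts, which asks for counts in several libraries, and 36 of these had a positive log2 fold change, where 47.1% of all 13274 genes tested did. The median log2 fold change was 2.07 for the 41 genes and -0.08 for all genes tested. A gene high in 1 group alone can pass the filter through that group, so these figures describe the tested genes and not the families. The plot of levels by library shows all 53 genes.

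**Figure D1:**
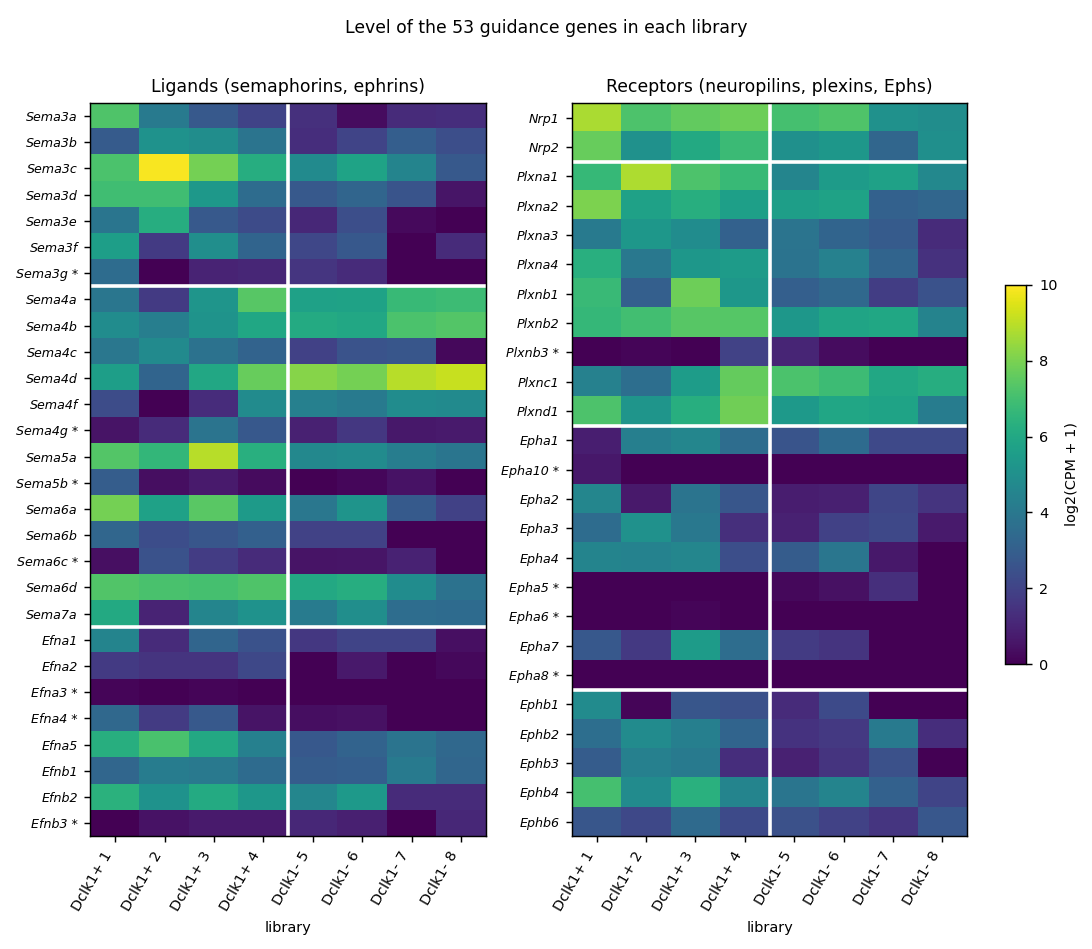
Level of each of the 53 guidance genes (rows, ligands left and receptors right, grouped by class) in each library (columns), as log2(CPM + 1), with Dclk1+ libraries left of Dclk1- libraries and an asterisk on the 12 genes that did not pass the filter on low counts. Most rows are brighter in Dclk1+ libraries, while Sema4a, Sema4b, Sema4d, Sema4f and Plxnc1 are bright in Dclk1- libraries and in Dclk1+ library 4.

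The formal test called few of them. At an adjusted p under 0.05, 3 of the 41 genes were higher in Dclk1+ libraries, the semaphorin Sema5a, the ephrin Efna5 and the plexin Plxna1, and 0 were lower. That is 7.32% of the genes, beside a background of 3.49% for calls over all genes tested (2.47% higher and 1.02% lower), a small difference from the background. At an unadjusted p under 0.05, 27 of the 41 were higher and 2 lower, beside 31.9% of all genes in either direction (18.3% higher and 13.6% lower). DESeq2 called 25 of the 41 higher and 2 lower, beside 17.3% and 8.53% of all genes. Without Dclk1+ library 4, edgeR called 15 higher and 3 lower, beside 12.1% and 6.23% of all genes. Leaving out any 1 of the other 7 libraries left no gene of the table called by edgeR. Then 22 to 30 of the 42 to 45 guidance genes tested had an unadjusted p under 0.05, beside 23.0% to 29.2% of all genes.

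**Figure D2:**
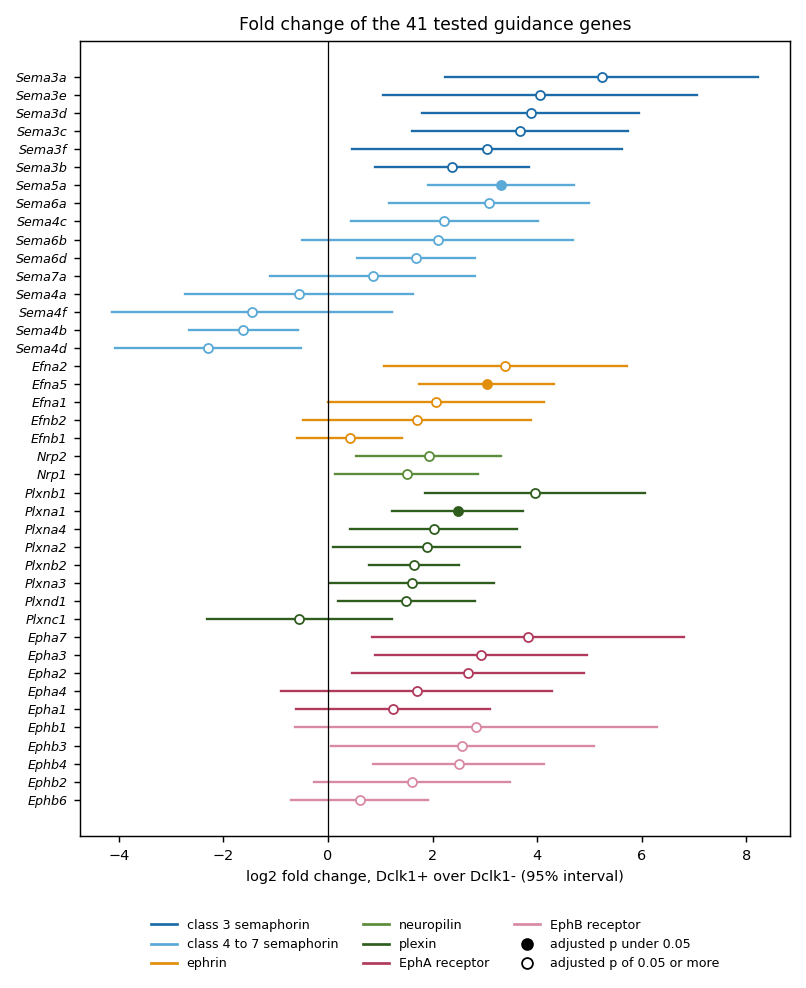
Log2 fold change, Dclk1+ over Dclk1-, of the 41 tested guidance genes (points) with 95% intervals (lines), coloured by class, with filled points for the 3 genes called by edgeR. Points run from 5.24 for Sema3a to -2.29 for Sema4d, and 5 lie below 0.

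Of the tested genes, ligands had groups without overlap more often than receptors. Among 21 tested ligands, 12 (57.1%) had CPM values that did not overlap between the groups, 10 of them with every Dclk1+ library above every Dclk1- library. Among 20 tested receptors only 2 did not overlap, both with Dclk1+ above. Over all genes tested 21.6% did not overlap, and 10.7% had Dclk1+ above. A gene can pass the filter through its high group alone, as Efna2 did with 0 to 5 counts per Dclk1- library. These counts therefore describe the tested genes only. Median log2 fold changes were 2.23 for ligands and 1.91 for receptors, and no test of the difference between ligands and receptors was made.

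Of the secreted ligands, all 6 tested class 3 semaphorins had a positive log2 fold change, with a median of 3.78. None was called by edgeR, at adjusted p from 0.0503 for Sema3d to 0.11 for Sema3f. All 6 were higher at an unadjusted p under 0.05, beside 18.3% of all genes tested. DESeq2 called all 6 higher, beside 17.3% of all genes. Sema3c, Sema3a and Sema3d separated the groups in every library. Sema3a, Sema3c, Sema3d and Sema3e also lie together on mouse chromosome 5, in the order Sema3d, Sema3a, Sema3e and Sema3c, with 18 other annotated protein-coding genes among them in RefSeq. A positive direction was not particular to these 4, as all 6 tested class 3 semaphorins had it. Values of the genes between them are not given here. The 250 bases before the start of each of the 4 are shown from RefSeq (GRCm38.p6), on the strand of the gene. Capitals mark the GC box GGGCGG and the CCAAT box CCAAT on either strand. These windows lie at chr5:13396534-13396783, plus strand, chr5:17574566-17574815, plus strand, chr5:12382916-12383165, plus strand, and chr5:14025026-14025275, plus strand.

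Sema3a: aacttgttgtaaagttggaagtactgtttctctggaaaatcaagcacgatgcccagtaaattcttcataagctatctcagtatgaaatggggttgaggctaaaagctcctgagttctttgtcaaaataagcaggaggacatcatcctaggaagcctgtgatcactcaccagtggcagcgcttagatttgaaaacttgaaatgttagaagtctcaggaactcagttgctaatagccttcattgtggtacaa

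Sema3c: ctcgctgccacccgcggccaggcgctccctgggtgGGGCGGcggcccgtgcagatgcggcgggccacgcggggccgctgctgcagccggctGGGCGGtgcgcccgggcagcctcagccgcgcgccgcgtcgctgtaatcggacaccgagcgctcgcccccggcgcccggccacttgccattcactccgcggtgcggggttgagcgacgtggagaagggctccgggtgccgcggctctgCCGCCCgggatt

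Sema3d: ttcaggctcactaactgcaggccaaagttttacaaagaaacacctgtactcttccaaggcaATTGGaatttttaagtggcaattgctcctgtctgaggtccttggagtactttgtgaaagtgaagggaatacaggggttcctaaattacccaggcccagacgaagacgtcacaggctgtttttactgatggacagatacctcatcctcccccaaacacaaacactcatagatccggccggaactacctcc

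Sema3e: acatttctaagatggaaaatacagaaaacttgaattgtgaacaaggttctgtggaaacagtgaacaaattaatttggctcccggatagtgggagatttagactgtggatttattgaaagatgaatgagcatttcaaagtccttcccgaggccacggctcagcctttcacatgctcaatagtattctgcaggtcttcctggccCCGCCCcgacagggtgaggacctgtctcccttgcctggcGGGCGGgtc

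The 4 windows are unlike one another. That of Sema3c is 78.4% G and C with 39 CpG dinucleotides and 3 GC boxes, while that of Sema3a is 40.8% G and C with 2 CpG dinucleotides and neither box. Sema3d has 1 CCAAT box and Sema3e 2 GC boxes, at 46.8% and 48% G and C, and none of the 4 holds the TATA box letters TATAAA. Among all 32851 promoter windows of the same length, the GC box was in 32.7%, the CCAAT box in 33.8% and TATAAA in 12.4%, and the median was 52.4% G and C. A match is a description of letters and not a site.

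Sema3c, a secreted semaphorin known from heart outflow and vessel development, was at 143, 950.0, 238 and 74.0 CPM in Dclk1+ libraries, against 26.6, 54.9, 22.0 and 6.01 CPM in Dclk1- libraries. All Dclk1+ values exceeded all Dclk1- values, although Dclk1+ library 2 supplied most of the Dclk1+ mean. Its log2 fold change was 3.68 ± 0.92 (SE, edgeR adjusted p = 0.0525), and without Dclk1+ library 2 it was 2.46. Sema3a, the classic repellent of growth cones that acts through Nrp1 and A plexins, was at 153, 15.9, 5.95 and 3.0 CPM in Dclk1+ libraries, against 1.62, 0.243, 1.35 and 1.5 CPM in Dclk1- libraries. Library 1 decided the size of this difference. With all libraries Sema3a had a log2 fold change of 5.24 ± 1.33 (adjusted p = 0.0529), and without Dclk1+ library 1 it was 2.81 (adjusted p = 0.104).

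Sema3d, a class 3 semaphorin known from the patterning of veins, was at 123, 122, 39.2 and 10.6 CPM in Dclk1+ libraries, against 5.88, 8.49, 5.02 and 0.501 CPM in Dclk1- libraries (log2 fold change 3.88 ± 0.93, edgeR adjusted p = 0.0503). Dclk1+ libraries 1 and 2 were even, libraries 3 and 4 were lower, and the groups did not overlap. Sema3e, which binds the plexin Plxnd1 without a neuropilin, was at 13.7, 74.2, 5.84 and 3.89 CPM in Dclk1+ libraries, against 1.18, 4.25, 0.193 and 0 CPM in Dclk1- libraries (log2 fold change 4.05 ± 1.34, adjusted p = 0.0812). The groups overlapped here through Dclk1+ library 4 and Dclk1- library 6. Sema3e was at 2.42 on the log2 scale without Dclk1+ library 2 and at 5.76 without Dclk1- library 6. Sema3b and Sema3f, both known ligands of Nrp2, had log2 fold changes of 2.37 ± 0.66 and 3.04 ± 1.15. Sema3f was at 2.24 CPM in Dclk1+ library 2, inside the Dclk1- range of 0 to 5.70 CPM. Sema3g did not pass the filter on low counts, with 96 of its 139 counts in Dclk1+ library 1.

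Summed markers of fibroblasts were higher in most Dclk1+ libraries too, and followed these genes only in part. The 14 fibroblast markers summed to 17247, 61960, 23701 and 9822 CPM in Dclk1+ libraries, against 2023, 5285, 13111 and 3123 CPM in Dclk1- libraries. Of the 14, 13 had a positive and 1 a negative log2 fold change, and none was at 0 in all libraries of a group. Dclk1- library 7 held the highest Dclk1- sum and Sema3b, while Sema3a, Sema3c, Sema3d, Sema3e and Sema3f were each higher in another Dclk1- library. The highest sum was in Dclk1+ library 2, which also held the highest Sema3c, Sema3e and Sema3b. The 12 pericyte and smooth muscle markers summed to 188 to 2220.4 CPM in Dclk1+ libraries, against 41.4 to 154 CPM in Dclk1- libraries, none at 0 in a whole group, with the highest sum in Dclk1+ library 1, where Sema3a and Sema3f were highest. The part of these cell types in the class 3 values was not tested. In bulk RNA, fewer cells of a type and less RNA per cell cannot be told apart.

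**Figure D3:**
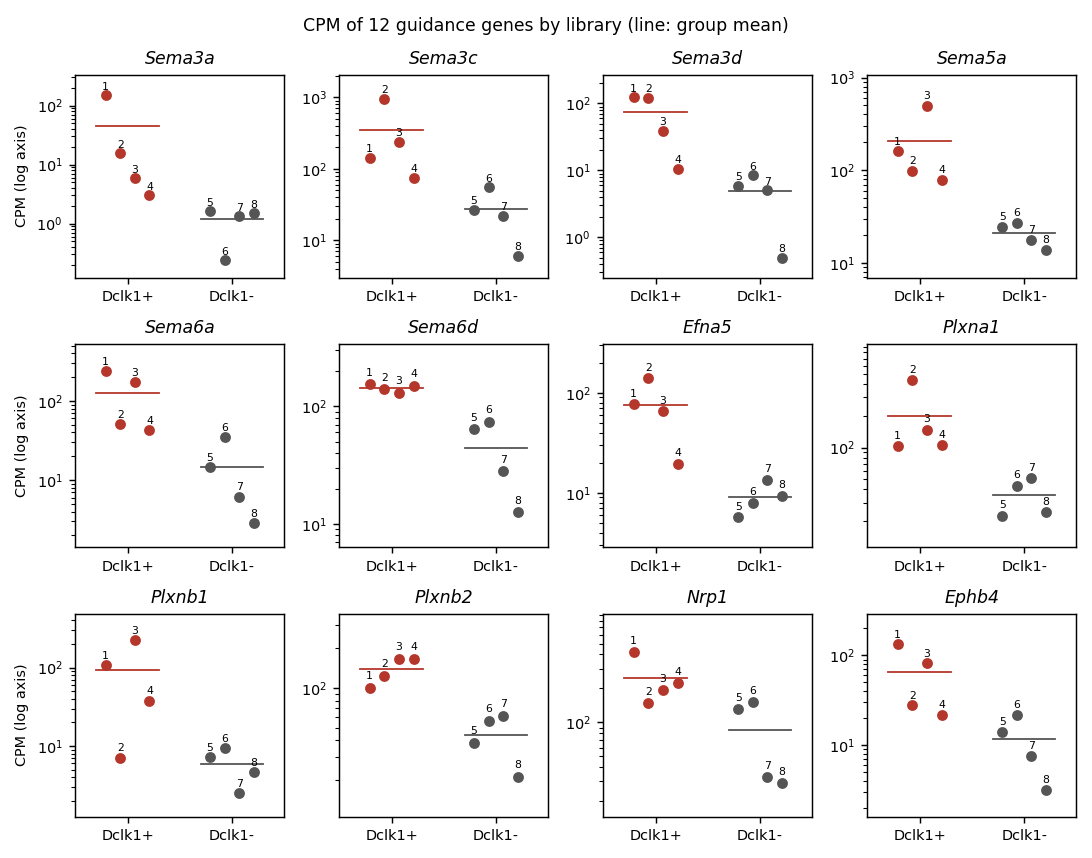
CPM (log axis) of 12 guidance genes in the 4 Dclk1+ (left, red) and 4 Dclk1- (right, grey) libraries, each point labelled with its library number and each line at the group mean. Sema6d lies within 131 to 154 CPM in all Dclk1+ libraries, while Sema3a spans 3.0 to 153 CPM, and Plxnb1, Nrp1 and Ephb4 overlap between the groups.

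The membrane semaphorins of classes 5 to 7 were also on the Dclk1+ side, with 5 of 5 tested log2 fold changes positive and a median of 2.10. Of the 5, edgeR called 1 higher, beside 2.47% of all genes. At an unadjusted p under 0.05, 3 were higher, beside 18.3% of all genes. DESeq2 called 3 higher, beside 17.3% of all genes. Sema5a, a semaphorin with thrombospondin repeats, was the gene called by edgeR and rose in Dclk1+ libraries. It was at 159.7, 98.8, 490.5 and 79.2 CPM in Dclk1+ libraries, against 24.5, 27.3, 17.8 and 13.9 CPM in Dclk1- libraries. The lowest Dclk1+ value was above the highest Dclk1- value by a clear margin. The fitted log2 fold change was 3.31 ± 0.62 (SE, edgeR adjusted p = 0.0469), and 2.57 without Dclk1+ library 3, where the adjusted p was 0.0979.

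Sema6a, a membrane semaphorin that binds the plexins Plxna2 and Plxna4, was at 238, 51.1, 171 and 42.7 CPM in Dclk1+ libraries, against 14.7, 35.3, 6.18 and 2.84 CPM in Dclk1- libraries (log2 fold change 3.08 ± 0.85, edgeR adjusted p = 0.0596). The groups did not overlap, with Dclk1+ library 4 next to Dclk1- library 6. Sema6d, a ligand of Plxna1, was at 154, 140.0, 131 and 150.4 CPM in Dclk1+ libraries, against 63.8, 74.2, 28.0 and 12.7 CPM in Dclk1- libraries. Its Dclk1+ libraries were close together, at a mean of 144 ± 10.3 CPM against 44.7 ± 29.1 CPM (SD, n = 4 each). Its log2 fold change was 1.69 ± 0.50 (adjusted p = 0.0676).

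Sema6b had low counts and separated the groups, at 8.77, 4.18, 5.40 and 7.44 CPM in Dclk1+ libraries, against 2.94, 2.91, 0 and 0 CPM in Dclk1- libraries (log2 fold change 2.10 ± 1.16, edgeR adjusted p = 0.237). Sema7a, which is held by a lipid anchor, overlapped widely, at 66.9, 1.02, 22.7 and 33.3 CPM in Dclk1+ libraries, against 17.0, 30.1, 11.0 and 10.4 CPM in Dclk1- libraries. Its log2 fold change was 0.85 ± 0.88 (adjusted p = 0.525), and it was -0.14 in limma-voom. Sema5b and Sema6c did not pass the filter, with 75 and 95 counts over all 8 libraries.

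Class 4 was the part of the family on the other side. Of its 5 tested genes 4 had negative log2 fold changes, with a median of -1.45, and none was called by edgeR with all 8 libraries. At an unadjusted p under 0.05, 2 were lower and 1 higher, beside 13.6% and 18.3% of all genes. DESeq2 called the same numbers, beside 8.53% and 17.3% of all genes. Sema4d, known as CD100 on T cells and a ligand of B plexins and of Cd72, was at 47.7, 8.37, 63.4 and 203 CPM in Dclk1+ libraries, against 287, 237, 483 and 572 CPM in Dclk1- libraries. No Dclk1+ library reached a Dclk1- library, and Dclk1+ library 4 came nearest. The log2 fold change was -2.29 ± 0.79 (SE, edgeR adjusted p = 0.0907), and without library 4 it was -3.18 (adjusted p = 0.0225). Without Dclk1- libraries 7 and 8 it was -1.60 (adjusted p = 0.359).

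Sema4b behaved alike, at 28.4, 18.5, 33.7 and 60.3 CPM in Dclk1+ libraries, against 69.0, 62.7, 142 and 160.0 CPM in Dclk1- libraries (log2 fold change -1.62 ± 0.46, edgeR adjusted p = 0.0637). The groups met closely at Dclk1+ library 4 and Dclk1- library 6, without overlap, and the log2 fold change was -0.81 (adjusted p = 0.334) without Dclk1- libraries 7 and 8. Sema4a, a semaphorin of dendritic and T cells, overlapped, at 14.3, 2.24, 36.0 and 168 CPM in Dclk1+ libraries, against 51.7, 53.4, 107 and 114 CPM in Dclk1- libraries. Dclk1+ library 4 was above every Dclk1- library while Dclk1+ libraries 1 to 3 were below them all. With all libraries its log2 fold change was -0.56 ± 0.97 (adjusted p = 0.717), without library 4 it was -2.08 (adjusted p = 0.102), and it turned to 0.17 without Dclk1- libraries 7 and 8.

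Sema4f followed the same order, at 4.0, 0, 1.43 and 27.7 CPM in Dclk1+ libraries, against 19.5, 15.8, 28.2 and 26.9 CPM in Dclk1- libraries (log2 fold change -1.45 ± 1.19, edgeR adjusted p = 0.422). The 0 in Dclk1+ library 2 allows up to 0.306 CPM at 3 counts, counting error only. Sema4c, a ligand of Plxnb2, was the exception of its class, at 14.5, 26.6, 12.8 and 8.11 CPM in Dclk1+ libraries, against 2.79, 4.85, 5.41 and 0.167 CPM in Dclk1- libraries. Its groups did not overlap, and its log2 fold change was 2.23 ± 0.80 (adjusted p = 0.0977). Sema4g did not pass the filter, with 123 of its 222 counts in Dclk1+ library 3.

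Summed markers of T cells and B cells were lower in all Dclk1+ than in all Dclk1- libraries, as were Sema4b and Sema4d. Those of macrophages were not. The 12 T cell markers in the table, of 14 listed, summed to 25.1 to 804 CPM in Dclk1+ libraries, against 1261 to 4443 CPM in Dclk1- libraries. The 10 B cell markers summed to 42.9 to 648 CPM in Dclk1+ libraries, against 2716 to 3489.8 CPM in Dclk1- libraries. Both sums were highest among Dclk1+ libraries in library 4, as were Sema4a, Sema4b, Sema4d and Sema4f. The 12 macrophage markers in the table, of 13 listed, summed to 360, 74.1, 1179 and 8521 CPM in Dclk1+ libraries, against 503 to 1304 CPM in Dclk1- libraries. This sum too was highest among Dclk1+ libraries in library 4, and it was lowest in library 2, as were Sema4a, Sema4b, Sema4d and Sema4f. All 12 macrophage markers had a positive log2 fold change, with a median of 1.86. None of these markers was at 0 in all libraries of a group, and their part in the class 4 values was not tested.

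**Figure D4:**
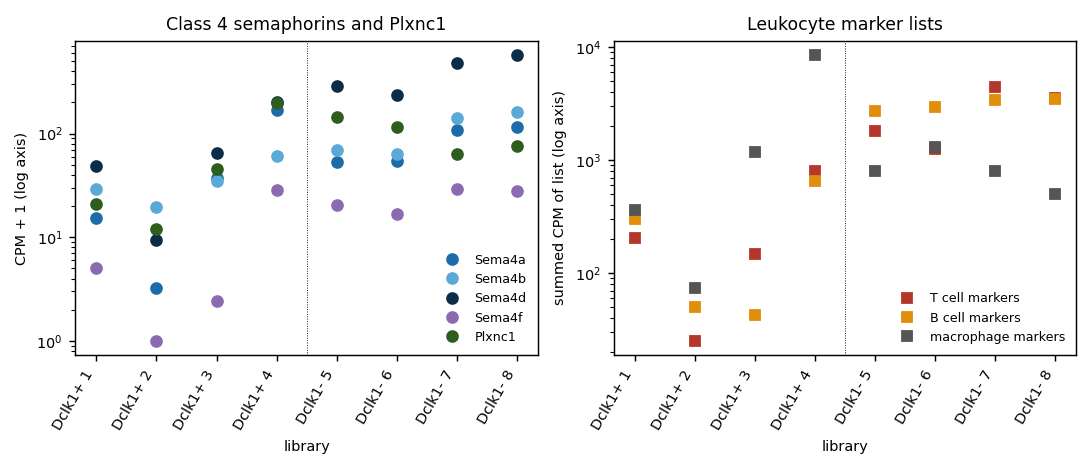
Left, CPM + 1 (log axis) of 4 class 4 semaphorins and Plxnc1 in each library, and right, summed CPM (log axis) of the T cell, B cell and macrophage marker lists, with Dclk1+ libraries left of the dotted line and Dclk1- libraries right of it. Sema4d and Sema4b lie lower in all Dclk1+ than in all Dclk1- libraries, as the T cell and B cell sums do, and Dclk1+ library 4 has the highest macrophage sum, at 8521 CPM, and the highest Sema4a and Plxnc1.

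The ephrins, which are ligands on the cell surface, were led by the A family. Efna5, an ephrin of the A family known from topographic mapping of axons, was called and rose in Dclk1+ libraries. Its promoter window and that of the other called ligand, Sema5a, are shown with the same marking, at chr17:62881318-62881567, minus strand, and chr15:32244563-32244812, plus strand.

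Efna5: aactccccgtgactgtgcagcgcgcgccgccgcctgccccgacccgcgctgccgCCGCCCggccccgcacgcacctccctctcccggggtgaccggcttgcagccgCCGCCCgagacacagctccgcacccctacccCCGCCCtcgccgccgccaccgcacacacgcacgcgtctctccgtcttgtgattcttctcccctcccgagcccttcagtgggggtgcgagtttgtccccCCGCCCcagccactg

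Sema5a: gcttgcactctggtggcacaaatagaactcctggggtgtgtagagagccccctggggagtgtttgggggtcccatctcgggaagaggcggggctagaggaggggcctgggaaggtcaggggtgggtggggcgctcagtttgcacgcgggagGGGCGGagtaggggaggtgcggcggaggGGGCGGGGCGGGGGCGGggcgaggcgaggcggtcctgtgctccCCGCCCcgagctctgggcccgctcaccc

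Both windows are rich in G and C, at 74.8% for Efna5 and 72.0% for Sema5a, with 4 and 5 GC boxes and no CCAAT or TATAAA. Efna5 was at 76.9, 139, 65.1 and 19.6 CPM in Dclk1+ libraries, against 5.73, 8.01, 13.5 and 9.35 CPM in Dclk1- libraries. The groups were apart, with Dclk1+ library 4 nearest to the Dclk1- libraries. On the log2 scale the fold change was 3.04 ± 0.58 (SE, edgeR adjusted p = 0.0469), and it ran from 2.55 to 3.46 as each library was left out.

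Efna2 was low throughout, at 2.22, 1.84, 1.87 and 3.44 CPM in Dclk1+ libraries, against 0, 0.607, 0 and 0.167 CPM in Dclk1- libraries, and did not overlap (log2 fold change 3.39 ± 1.04, edgeR adjusted p = 0.0706). Its Dclk1- values rest on 5 counts in library 6 and 1 in library 8, so the fold change is loose. Efna4 missed the filter, with 84, 23, 54 and 4 counts in Dclk1+ libraries against 2, 3, 0 and 0 counts in Dclk1- libraries. Without Dclk1+ library 4 it passed through its high Dclk1+ libraries alone. It was then called higher (at 5.08 on the log2 scale, edgeR adjusted p = 0.019), which is a description and not support for a difference. Efna1, the usual ligand of Epha2, overlapped (log2 fold change 2.07 ± 0.92, adjusted p = 0.156). Efna3 had 2 counts in all.

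In the B family neither tested gene was called by edgeR or DESeq2, nor had an unadjusted p under 0.05. Efnb2, which marks arterial endothelium, was at 81.9, 33.6, 68.0 and 38.4 CPM in Dclk1+ libraries, against 22.9, 42.1, 1.35 and 1.34 CPM in Dclk1- libraries. The groups overlapped, and Dclk1- libraries 5 and 6 were far above 7 and 8 (log2 fold change 1.70 ± 0.97, edgeR adjusted p = 0.252, and 0.84 without libraries 7 and 8). Efnb1 averaged 12.9 ± 3.97 CPM over the Dclk1+ libraries, beside 9.70 ± 4.59 CPM over the Dclk1- libraries (SD of 4), with 0.41 as its log2 fold change and a 95% interval of -0.59 to 1.42. Efnb3 had 38 counts over all libraries and was not tested.

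Among receptors, both neuropilins were on the Dclk1+ side without a call by edgeR. Both were higher at an unadjusted p under 0.05, beside 18.3% of all genes, and in DESeq2, beside 17.3%. Nrp1, co-receptor of class 3 semaphorins and of vascular endothelial growth factor, was at 419, 148, 194 and 222 CPM in Dclk1+ libraries, against 132, 151, 32.6 and 29.2 CPM in Dclk1- libraries. Dclk1+ library 2 was level with Dclk1- library 6, and Dclk1- libraries 7 and 8 were far below 5 and 6. The log2 fold change was 1.51 ± 0.61 (SE, edgeR adjusted p = 0.127), and 0.88 without libraries 7 and 8. Nrp2 was at 206, 32.0, 66.2 and 113 CPM in Dclk1+ libraries, against 31.3, 38.7, 8.88 and 30.9 CPM in Dclk1- libraries (log2 fold change 1.92 ± 0.62, adjusted p = 0.0765). Here again Dclk1+ library 2 was inside the Dclk1- range.

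Endothelial markers, like Nrp1 and Nrp2, were highest in Dclk1+ library 1 and, among Dclk1+ libraries, lowest in library 2. The 15 endothelial markers summed to 3359, 657, 1544 and 1072 CPM in Dclk1+ libraries, against 725, 1193, 258 and 203 CPM in Dclk1- libraries, and the 5 lymphatic markers to 164 to 1585 CPM in Dclk1+ libraries, against 18.0 to 106 CPM in Dclk1- libraries. None of them was at 0 in all libraries of a group, and their part in the neuropilin, Efnb2 and Ephb4 values was not tested.

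The plexins, the signalling receptors of semaphorins, had 7 of 8 tested log2 fold changes above 0. Of the 8, edgeR called 1 higher, beside 2.47% of all genes. At an unadjusted p under 0.05, 7 were higher, beside 18.3% of all genes. DESeq2 called 6 higher, beside 17.3% of all genes. Plxna1, an A plexin that pairs with neuropilins, rose in Dclk1+ libraries, at 103, 437, 147 and 105 CPM, against 22.6, 43.5, 51.2 and 24.4 CPM in Dclk1- libraries. The groups were well apart, and library 2 again stood above its group. The log2 fold change was 2.48 ± 0.56 (SE, edgeR adjusted p = 0.0492), and 1.73 without Dclk1+ library 2 (adjusted p = 0.0632). In the GENCODE annotation 10.7% of its exon bases also lie in Gm26811 on the opposite strand, and without strand in the counting these reads cannot be told apart.

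Plxnb1, a B plexin that binds Sema4d, had the largest log2 fold change of the plexins, 3.97 ± 0.94 (edgeR adjusted p = 0.0503). It was at 109, 7.14, 222 and 38.0 CPM in Dclk1+ libraries, against 7.20, 9.46, 2.51 and 4.68 CPM in Dclk1- libraries. Libraries 1, 3 and 4 were far above the Dclk1- libraries, and library 2 was among them. The 15 duct markers summed to 1356, 619, 5282 and 990.1 CPM in Dclk1+ libraries, against 182, 175, 311 and 447 CPM in Dclk1- libraries. Their order followed Plxnb1 in Dclk1+ libraries and not in Dclk1- libraries. Of 13 tested duct markers, 12 had a positive log2 fold change and 1 a negative one, at -2.82. None was at 0 in a whole group, and their part in Plxnb1 was not tested.

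Plxnb2, the other B plexin tested, was even across its group, at 101, 123, 166 and 164 CPM in Dclk1+ libraries, against 38.2, 56.4, 61.4 and 21 CPM in Dclk1- libraries, with no overlap (log2 fold change 1.65 ± 0.38, edgeR adjusted p = 0.0501). It was a member of the 9 genes called higher with no filter on low counts, and of the 8 called higher with the scaling of DESeq2. Plxna2, Plxna3, Plxna4 and Plxnd1 had log2 fold changes from 1.5 for Plxnd1 to 2.02 for Plxna4, with adjusted p from 0.093 to 0.148 and overlapping groups. Plxnd1 was highest in Dclk1+ library 4, at 226 CPM.

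Plxnc1, the receptor of Sema7a and known from leukocytes, was the 1 receptor with a negative log2 fold change. It was at 19.9, 11.1, 44.6 and 196 CPM in Dclk1+ libraries, against 145, 115, 63.2 and 75.0 CPM in Dclk1- libraries. As with Sema4a, Dclk1+ libraries 1 to 3 were below all Dclk1- libraries and library 4 above them all. The log2 fold change was -0.55 ± 0.79 (edgeR adjusted p = 0.656), and without Dclk1+ library 4 it was -1.82 (adjusted p = 0.0443). Plxnb3 had 36 counts, 26 of them in Dclk1+ library 4.

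**Figure D5:**
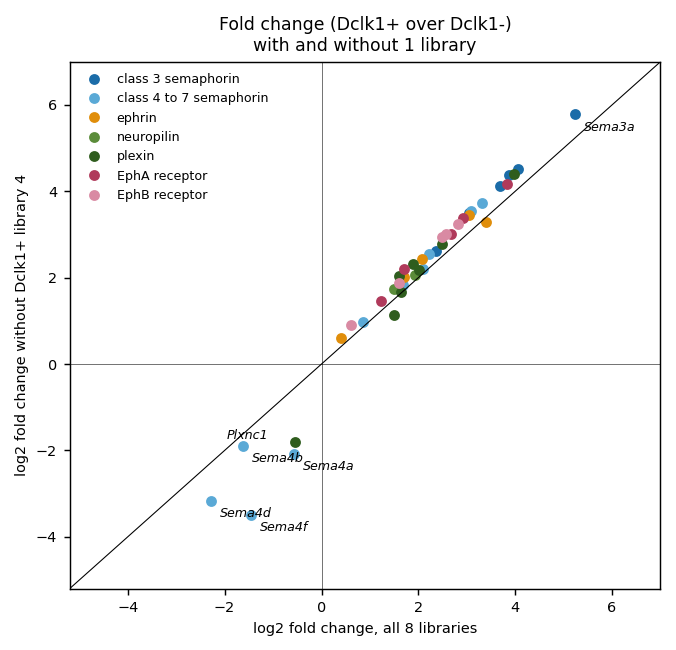
Log2 fold change, Dclk1+ over Dclk1-, of the 41 tested guidance genes with all 8 libraries (horizontal axis) and without Dclk1+ library 4 (vertical axis), coloured by class, with the line of equal values. Sema4a, Sema4f and Plxnc1 lie farthest under the line, at -2.08, -3.50 and -1.82 without that library, against -0.56, -1.45 and -0.55 with it.

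The Eph receptors, kinases that ephrins activate, were on the Dclk1+ side where they could be tested, and none was called by edgeR. At an unadjusted p under 0.05, 5 were higher, beside 18.3% of all genes. DESeq2 called 5 higher, beside 17.3% of all genes. All 10 tested had a positive log2 fold change, with a median of 2.53, and the groups overlapped in every one. Ephb4, known from veins and the main receptor of Efnb2, came nearest to a call, at 133, 27.7, 81.4 and 21.8 CPM in Dclk1+ libraries, against 14, 21.8, 7.53 and 3.17 CPM in Dclk1- libraries. Only Dclk1+ library 4 and Dclk1- library 6 were level, and the log2 fold change was 2.50 ± 0.73 (SE, edgeR adjusted p = 0.066). Ephb2, at 11.3, 27.0, 18.7 and 8.33 CPM in Dclk1+ libraries, overlapped through Dclk1- library 7, at 16.2 CPM against 1.76, 2.18 and 1.5 CPM in libraries 5, 6 and 8 (log2 fold change 1.60 ± 0.83, adjusted p = 0.213, and 3.25 with adjusted p = 0.067 without library 7).

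Among A receptors, Epha3, a receptor of Efna5, was at 10.7, 32.0, 15.2 and 1.56 CPM in Dclk1+ libraries, against 0.881, 2.79, 3.48 and 0.668 CPM in Dclk1- libraries (log2 fold change 2.92 ± 0.90, edgeR adjusted p = 0.0721). Library 4 was the Dclk1+ library inside the Dclk1- range. Epha4, which binds ephrins of both families, was at 21.6, 20.7, 23.4 and 4.22 CPM in Dclk1+ libraries, against 6.61, 14.1, 0.579 and 0 CPM in Dclk1- libraries (log2 fold change 1.70 ± 1.16, adjusted p = 0.333). Epha1 was at 0.777, 18.9, 23.4 and 11.0 CPM in Dclk1+ libraries, against 4.99, 10.4, 3.67 and 3.67 CPM in Dclk1- libraries (log2 fold change 1.24 ± 0.83, adjusted p = 0.324). Dclk1+ library 1 thus held the least Epha1 of all 8 libraries.

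Epha2 and Epha7 had log2 fold changes of 2.67 ± 0.99 and 3.83 ± 1.33 with edgeR adjusted p of 0.104 and 0.0913, and the highest Epha7 value, 43.3 CPM, was in Dclk1+ library 3. Ephb1 and Ephb3 had log2 fold changes of 2.83 ± 1.55 and 2.57 ± 1.12, and Ephb1 was at 27.5 CPM in Dclk1+ library 1 and 0.102 CPM in Dclk1+ library 2. Ephb1 was at 1.35 on the log2 scale without Dclk1+ library 1 and at 4.49 without Dclk1- library 6. Ephb6, which lacks kinase activity, was at 0.60 ± 0.59 (adjusted p = 0.501, 95% interval -0.71 to 1.92). Epha5, Epha6, Epha8 and Epha10 had 12, 1, 0 and 5 counts over all 8 libraries.

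Known ligand and receptor pairs were set side by side. Of 38 listed pairs 33 had both genes tested, and in 27 of these both log2 fold changes were positive. The other 6 had opposite signs, and each held a class 4 semaphorin or Plxnc1. As 17 of 21 tested ligands and 19 of 20 tested receptors were positive, and genes recur across pairs, these counts largely restate the single signs. Sema4d had a log2 fold change of -2.29 beside 3.97 for Plxnb1 and 1.65 for Plxnb2. Sema5a and Plxna1 was the 1 pair with both genes called. Efna5, at 3.04, stood beside Epha3 at 2.92 and Epha4 at 1.70, and Efnb2, at 1.70, beside Ephb4 at 2.50.

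Levels can be set against one another only per length, taken here as CPM per kb of GENCODE exon. In Dclk1- libraries Sema4d led the 53 genes, at 83.3 ± 33.5 CPM per kb (SD, n = 4), with the next, Sema4b, at 26.9 ± 12.3 CPM per kb. In Dclk1+ libraries Nrp1 and Sema3c led, at 68.3 ± 33.1 and 64.0 ± 73.7 CPM per kb (SD, n = 4 each), a difference within their spread, and Plxna1 followed at 21.9 ± 17.8 CPM per kb. Sema4d was at 17.0 ± 17.9 CPM per kb in Dclk1+ libraries, and Sema3c at 4.99 ± 3.71 CPM per kb in Dclk1- libraries.

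Libraries differed among themselves in these genes. The highest Dclk1+ value fell in library 1 for 16 of the 41 tested genes and in library 2 for 11, with 7 each for libraries 3 and 4. Library 2 held the lowest Dclk1+ value of 20 genes and library 4 of 15. Among Dclk1- libraries, 22 of the 41 genes were lower in both libraries 7 and 8 than in both libraries 5 and 6. Single libraries also moved the log2 fold change of genes that were not called. Without Dclk1+ library 1 it was 1.15 for Efna1, 0.99 for Plxna2, 1.96 for Epha2 and 0.14 for Sema7a. Without Dclk1- library 6 it was 5.13 for Efna2, 4.14 for Sema6a, 2.88 for Efnb2 and 3.02 for Epha4. It was 2.21 for Epha3 without Dclk1+ library 2, 2.69 for Epha7 without Dclk1+ library 3 and 3.65 for Ephb3 without Dclk1- library 7.

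Partner and downstream genes of these pathways were counted in 4 lists. Of 14 tested semaphorin co-receptors and partners, 2 were called higher and 0 lower (14.3%, beside 3.49% over all genes, median log2 fold change 1.69). These were Itgb1, the integrin subunit through which Sema7a acts, and Erbb2, a receptor kinase that couples to B plexins. Itgb1 averaged 401 ± 125 CPM over the Dclk1+ libraries, beside 136 ± 38.8 CPM over the Dclk1- libraries (SD of 4), with a log2 fold change of 1.56 ± 0.36. Erbb2 was at 27.9, 36.9, 58.0 and 13.2 CPM in Dclk1+ libraries, against 1.91, 4.61, 5.41 and 0.835 CPM in Dclk1- libraries. Its groups did not overlap, and the log2 fold change was 3.41 ± 0.67 (edgeR adjusted p = 0.0469). Cd72, the B cell receptor of Sema4d, was at 16.0, 2.14, 6.06 and 23.6 CPM in Dclk1+ libraries, against 67.4, 75.9, 76.5 and 93.2 CPM in Dclk1- libraries (log2 fold change -2.71 ± 0.64, adjusted p = 0.0503).

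Inside the cell, 3 of 30 tested plexin effectors were called higher and 0 lower (10%, beside 3.49% over all genes, median log2 fold change 0.57). These were Mical2, a monooxygenase that disassembles actin filaments, the small GTPase Rnd3 and Dpysl4, a collapsin response mediator. Mical2 was at 83.1, 52.8, 76.0 and 26.8 CPM in Dclk1+ libraries, against 12.5, 11.3, 13.5 and 11.5 CPM in Dclk1- libraries. Its Dclk1- libraries were nearly level, and its log2 fold change was 2.29 ± 0.39 (edgeR adjusted p = 0.0466). Rnd3 and Dpysl4 had log2 fold changes of 2.57 ± 0.51 and 4.76 ± 1.08. Of 30 tested Eph and ephrin effectors, 2 were called higher and 0 lower (6.67%, beside 3.49% over all genes, median 0.42). They were the phosphatase Ptpn13 and the lipid phosphatase Inppl1, with log2 fold changes of 2.18 ± 0.43 and 1.72 ± 0.36.

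A further list held other guidance families. It had 21 tested genes of the Slit, Robo, netrin, Unc5, Flrt and Rgm families and their partners. Of these, 6 were called higher and 0 lower (28.6%, beside 3.49% over all genes). All 21 had a positive log2 fold change, with a median of 2.34. The called genes were the Slit receptor Robo1, its partners Srgap1 and Srgap3, the netrin Ntn4, the adhesion protein Flrt3 and the repulsive guidance molecule Rgma. Robo1 was at 111, 144, 46.6 and 10.6 CPM in Dclk1+ libraries, against 7.49, 10.2, 3.67 and 3.51 CPM in Dclk1- libraries (log2 fold change 3.64 ± 0.77, edgeR adjusted p = 0.0475). As in Sema3d, libraries 1 and 2 were high and library 4 was close to the Dclk1- libraries. The log2 fold changes of Srgap1, Srgap3, Ntn4, Flrt3 and Rgma ran from 2.03 ± 0.41 for Srgap3 to 4.29 ± 0.98 for Flrt3, each with non-overlapping groups. The lists were written knowing earlier results of these data, and their counts are given as a description. DESeq2 called 1 gene of the 4 lists lower, beside 8.53% of all genes. At an unadjusted p under 0.05, 5 had a negative log2 fold change, beside 13.6% of all genes.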

How the data were processed

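The authors' deposited table holds raw read counts per gene symbol, whole numbers with a different total per library and 1 column per library, matched to samples by the number in each title. The submitters' processing notes list HTSeq 0.6.1, build mm9 and bcl2fastq 1.8.4. For alignment they list TopHat2 2.0.4 with Bowtie2 2.0.0 in Dclk1- library 5, and TopHat with Bowtie 0.12.7 elsewhere. Neither annotation nor strand use is given in the sources used here. Per the labels' protocols, RNA was amplified (Ovation RNA-Seq System V2) before library preparation, so intervals and floors cover counting error only.

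Counts were tested with edgeR 4.0.16 (R 4.3.3) over all genes, with filterByExpr (minimum count 10, total 15), TMM scaling, a quasi-likelihood F test of the group (6 residual degrees of freedom) and Benjamini-Hochberg adjustment over 13274 genes at 0.05. SE came from the F statistic, and CPM used TMM-scaled library sizes. The step was tested on simulated data. Alternatives used DESeq2 1.42.0, limma 3.58.1 and sva 3.50.0. Every pair of libraries in a group differed by more than sampling noise, with a chi-square of at least 21.1 per degree of freedom. A single library's count of 0 allows 0.306 to 0.579 CPM, at 3 counts.

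The members and lists were chosen with earlier results of these data known. Values in every library are given for called members, for the 2 of highest mean CPM in each of 7 classes and for genes that did not overlap at 4-fold or more. All called pathway genes are named. Other genes given library by library (Sema3e, Sema4a, Sema4b, Sema4f, Sema6d, Sema7a, Plxnb1, Plxnc1, Epha3, Efna4 and Cd72, and Erbb2, Mical2 and Robo1 among the called pathway genes) were chosen after their values were seen. Promoters came from RefSeq for 47 of 53 genes, and exon lengths from GENCODE M21, another build than the counts.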

Additional observations from a re-analysis of the deposited data

Results flagged for a closer look

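A single library lay far from the other 3 of its group in 7 of 84 groups of 4 examined (Dclk1 and the 41 tested guidance genes in each group), where chance gives about 1 in 20. The measure is the gap to the nearest library over the range of the group. Dclk1+ library 1 was far above its group for Sema3a (0.914) and Plxna2 (0.871). Dclk1+ library 2 was far above for Plxna1 (0.869) and Sema3e (0.861). Dclk1+ library 4 was far above for Sema4f (0.856) and far below for Epha4 (0.862). Dclk1- library 7 was far above for Ephb2 (0.954).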

How the results depend on the processing

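No paired analysis was made. The column headers number the libraries within each group, but no label says whether these numbers mark pairs. Directions held better than calls: 39 of the 41 tested genes kept their sign in all 18 alternatives that tested them. Sema4a turned to 0.23 with 1 surrogate variable and 0.17 without Dclk1- libraries 7 and 8, and Sema7a to -0.14 in limma-voom. Guidance genes called higher (3) were 2 with upper-quartile scaling, where Plxna1 had an adjusted p of 0.0501, 8 with the scaling of DESeq2 (RLE), 9 with no filter, 7 with the stricter filter (at least 10 CPM in 4 libraries), 25 in DESeq2, 5 in limma-voom, 7 without Rn45s and 0 with 1 surrogate variable (15 at an unadjusted p under 0.05, beside 24.2% of all genes). Choices made after seeing the data gave 13 without Dclk1+ libraries 2 and 4 and 0 without Dclk1- libraries 7 and 8 (17 unadjusted, beside 24.8% of all genes). Those called lower (0) were 2 in DESeq2 and 2 without Dclk1+ libraries 2 and 4. All genes called (463) were 858 with RLE, 321 with upper-quartile scaling, 3422 in DESeq2 and 882 in limma-voom, each of 13274 tested. They were 1057 of 18476 with no filter, 954 of 9216 with the stricter filter and 694 of 13327 without Rn45s. They were 0 with 1 surrogate variable, 1488 of 13983 without Dclk1+ libraries 2 and 4 and 0 without Dclk1- libraries 7 and 8. Pathway genes called higher (13) were 7 with upper-quartile scaling, 38 in DESeq2 and 8 in limma-voom. Over all 13274 genes these settings called 225, 2290 and 407 higher. Pathway genes called lower (0) were 1 with RLE, 1 in DESeq2 and 1 in limma-voom, beside 193, 1132 and 475 of all 13274 genes. The Dclk1 log2 fold change passed the threshold with RLE (3.51), no filter (3.52), the stricter filter (3.47), DESeq2 (3.52), no Rn45s (3.45) and no Dclk1+ libraries 2 and 4 (3.32). As each library was left out, these results ran from 0 to 15 higher, 0 to 3 lower, 0 to 2481 over all genes, 0 to 29 and 0 to 2 pathway genes, and 2.75 to 3.86 for Dclk1, with the upper counts all without Dclk1+ library 4. The cause was not tested. The filter on low counts left 12 genes untested. Of these Efna4 was called without that library, after passing the filter through its Dclk1+ libraries alone.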
